A study of Mus musculus with 12 samples.

Results

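Natural killer (NK) genes and genes of innate-like T cells were followed in RNA-seq of sorted mouse CD4+ T cells from spleen and lymph node. The group holds 10 genes of the 10507 gene symbols listed in the series: Klrb1c, Klrk1, Klrd1, Nkg7, Xcl1, Ccl5, Zbtb16, Il18rap, Serpina3g and Myo1f. They were picked by name with their levels in spleen and lymph node already known, so their difference between the organs is given as a description, without a test. All 10 were listed for conventional T cells (Tcon). Only 6 were listed for regulatory T cells (Treg), and Klrk1, Klrd1, Xcl1 and Zbtb16 were listed for Tcon alone.

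The mice carried the Foxp3tm2Tch allele on a B6 background (FOXP3-IRES-GFP), in which cells that transcribe Foxp3 also make GFP, and all 12 libraries share it. The treatment was SAH-FOXP3(229-259)C, a stapled helical peptide named for the transcription factor FOXP3, given into the peritoneum at 25 mg/kg each day for 2 days, against vehicle (DMSO in the library titles). Each cell type, CD4+CD25+FOXP3+ Treg and CD4+ Tcon labelled as naive, has 2 spleen SAH libraries (05 and 06), 1 spleen vehicle library (04), 2 lymph node SAH libraries (02 and 03) and 1 lymph node vehicle library (01). The labels give no ages and do not tie libraries to mice, so p-values measure the spread between these libraries, which may be technical. The series title concerns inhibition of FOXP3, and the libraries allow SAH to be compared with vehicle in each cell type and organ.

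NK cells and innate-like T cells, such as NKT cells, respond quickly without prior priming and share a set of receptors, chemokines and killing machinery. Many of their lectin-like receptors are encoded side by side in the NK gene complex on mouse chromosome 6. Effector and memory T cells of the type 1 response, which is driven by the factor T-bet (Tbx21) and makes interferon gamma (Ifng), can take up parts of the same set. Naive CD4+ T cells are not known for these genes.

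Levels are the deposited CPM, a read signal scaled to the size of the library. A library holds 36442420 to 48888678 reads in the listed genes, and a single read is worth 0.0209 to 0.0267 CPM. Foxp3 was at 655 to 726 CPM in Treg libraries and 19.6 to 24.9 CPM in Tcon libraries, in the direction of the labels. Every listed gene reached 1 CPM in at least 3 libraries of its table. Of the 10 genes in Tcon, 4 were below 1 CPM in every lymph node library (Klrb1c, Klrk1, Xcl1 and Zbtb16) and were thus listed only through their spleen level. For these 4 the ratio between organs was therefore bound to be high. Ccl5, Il18rap and Serpina3g were at 1 CPM or more in 1 lymph node Tcon library each. They too needed their spleen level to be listed, which favoured a high ratio. The other 3 genes in Tcon and 6 of 6 in Treg were at 1 CPM or more in every lymph node library.

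In Tcon, 9 of the 10 genes had a mean in spleen at least 4 times that in lymph node. This holds for 0.587% of all Tcon genes, and since the genes were chosen with these values known nothing is read from that contrast. The ratio of means was 32.5 for Klrb1c, 29.5 for Zbtb16, 20.1 for Xcl1, 19.4 for Ccl5, 14.0 for Klrk1, 13.1 for Serpina3g, 11.6 for Nkg7, 8.68 for Myo1f and 8.30 for Il18rap, and 1.41 for Klrd1. In Treg the listed genes differed less between organs, with ratios of 3.04 for Ccl5, 2.82 for Klrb1c, 2.34 for Myo1f, 1.75 for Il18rap and 1.74 for Serpina3g, and Nkg7 was lower in spleen, at 0.550 of its lymph node mean. None of the 6 reached a ratio of 4 in Treg, where 0.317% of all genes did. The name of the group, NK genes of spleen cells, is a label for the chosen genes and not a result. It goes against Nkg7 in Treg, where the other 5 listed genes were higher in spleen. In these bulk libraries, more cells of a type and more RNA per cell cannot be told apart.

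**Figure D1:**
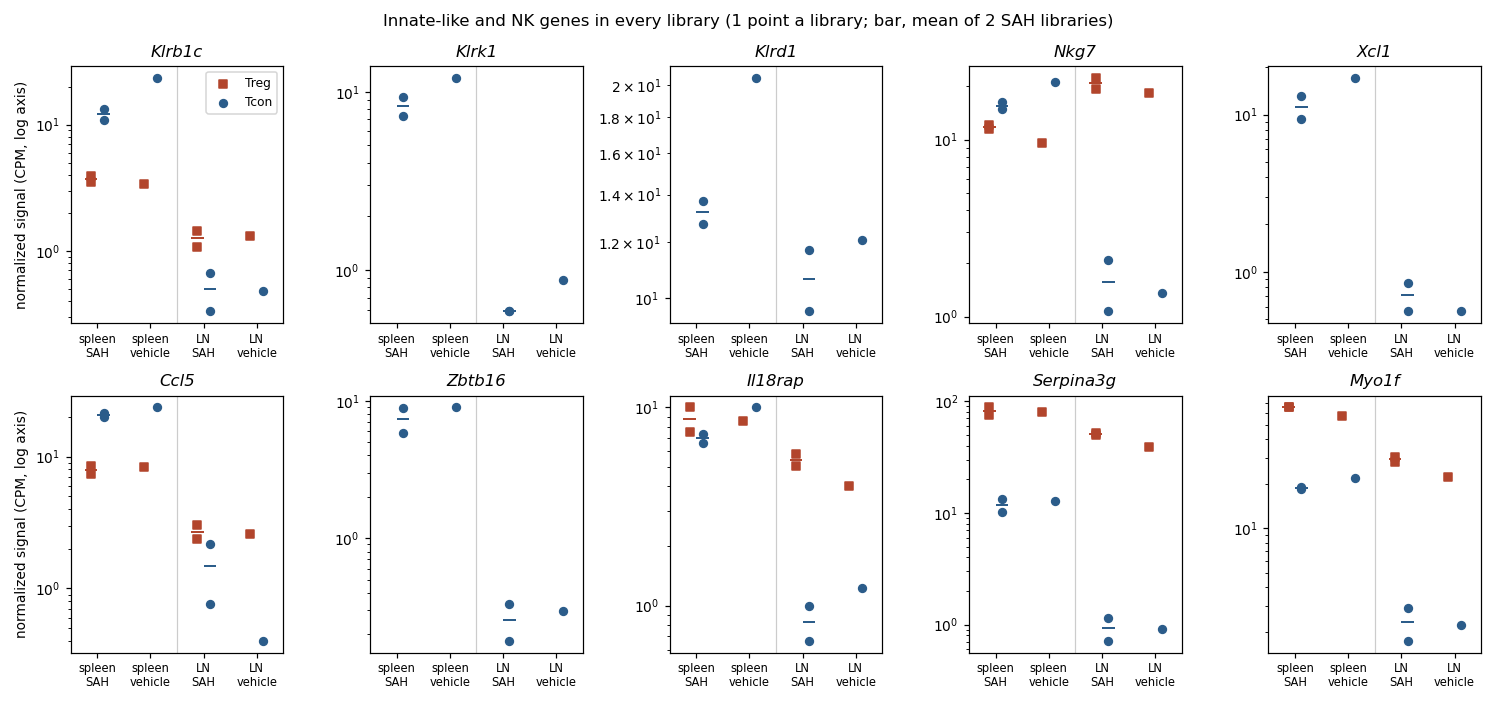
CPM of the 10 genes in each library, on log axes that differ between panels; squares are Treg and circles Tcon, each point is 1 library and the bar is the mean of 2 SAH libraries, with spleen left of lymph node (LN) and SAH left of vehicle. In Tcon every spleen point lies above every lymph node point, and in Treg the same holds for the listed genes other than Nkg7, whose spleen points lie below.

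Among the receptors, Klrb1c encodes NKR-P1C, the activating lectin-like receptor by which NK cells of B6 mice are commonly sorted. In Tcon it was at 10.9 and 13.4 CPM in spleen SAH, 23.6 CPM in spleen vehicle, 0.664 and 0.332 CPM in lymph node SAH and 0.480 CPM in lymph node vehicle. The lymph node values stand for 13 to 28 reads, and the spleen values for 427 to 1000 reads. In Treg it was at 3.91 and 3.51 CPM in spleen SAH, 3.38 CPM in spleen vehicle, 1.44 and 1.08 CPM in lymph node SAH and 1.32 CPM in lymph node vehicle. The organs did not overlap in either cell type, and Tcon held both the highest and the lowest levels. An exon of the predicted gene Gm44511 overlaps Klrb1c on the same strand, so reads of the pair may have been split.

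Klrk1 encodes NKG2D, an activating receptor for stress-induced ligands that signals through the adaptor DAP10 (Hcst). In Tcon it was at 7.35 and 9.38 CPM in spleen SAH, 12.0 CPM in spleen vehicle, 0.593 and 0.587 CPM in lymph node SAH and 0.880 CPM in lymph node vehicle. The organs did not overlap. Klrd1 encodes CD94, which pairs with an NKG2 chain such as Klrc1 to read the non-classical MHC molecule Qa-1 (H2-T23). Klrd1 was at 13.7 and 12.7 CPM in spleen SAH, 20.5 CPM in spleen vehicle, 11.7 and 9.57 CPM in lymph node SAH and 12.1 CPM in lymph node vehicle. The spleen libraries lay above the lymph node libraries by a narrow margin, and Klrd1 was the only one of the 10 with a lymph node level near its spleen level in Tcon. Its partner Klrc1, in contrast, was at 2.28 and 2.44 CPM in spleen SAH and 7.11 CPM in spleen vehicle, against 0.07 CPM, 0 and 0 in the lymph node libraries.

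Klrb1c, Klrd1 and Klrk1 lie within 845.38 kb of the NK gene complex (chromosome 6, 128778485 to 129623864 in mm10), a stretch that holds 22 protein-coding genes. Of these 8 were listed in Tcon and 6 in Treg. The other listed genes of the stretch, Clec2i, Clec2g, Clec2d, Cd69 and Gabarapl1, had spleen to lymph node ratios of 0.955 to 1.33 in Tcon and 0.910 to 1.25 in Treg. Clec2d, a ligand of a related NKR-P1 receptor, was at 66.5, 67.4 and 71.0 CPM in the spleen Tcon libraries 05, 06 and 04 and at 65.3, 71.5 and 72.8 CPM in the lymph node Tcon libraries 02, 03 and 01. The large ratios of Klrb1c and Klrk1 were thus not shared by the 5 listed genes between them.

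Nkg7 encodes a membrane protein of cytotoxic granules and was the gene that ran in opposite directions. In Tcon it was at 14.8 and 16.3 CPM in spleen SAH, 21.2 CPM in spleen vehicle, 2.09 and 1.07 CPM in lymph node SAH and 1.36 CPM in lymph node vehicle. In Treg it was at 12.0 and 11.4 CPM in spleen SAH, 9.62 CPM in spleen vehicle, 22.4 and 19.4 CPM in lymph node SAH and 18.3 CPM in lymph node vehicle. All spleen libraries were above all lymph node libraries in Tcon and below them in Treg. Lymph node Treg, at 20.0 ± 2.14 CPM, therefore held 13.3 times the level of lymph node Tcon, at 1.51 ± 0.523 CPM (SD, n = 3 each), although the tables were scaled separately and levels were not tested across them. Spleen Treg, at 11.0 ± 1.25 CPM, held 0.633 times the level of spleen Tcon, at 17.4 ± 3.32 CPM (SD, n = 3 each).

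The chemokines of the group are Xcl1, which draws cross-presenting dendritic cells that carry Xcr1, and Ccl5, which draws effector T cells and monocytes. Xcl1 in Tcon was at 9.40 and 13.0 CPM in spleen SAH, 17.2 CPM in spleen vehicle, 0.854 and 0.562 CPM in lymph node SAH and 0.560 CPM in lymph node vehicle. An exon of Gm20743 lies antisense to Xcl1, and the sources used here do not say whether counting used strand. Ccl5 in Tcon was at 21.3 and 20.1 CPM in spleen SAH, 23.7 CPM in spleen vehicle, 2.18 and 0.766 CPM in lymph node SAH and 0.400 CPM in lymph node vehicle. The spleen libraries were close to each other while the lymph node libraries spread widely, on 92, 30 and 15 reads. In Treg, Ccl5 was at 7.41 and 8.44 CPM in spleen SAH, 8.41 CPM in spleen vehicle, 3.004 and 2.38 CPM in lymph node SAH and 2.59 CPM in lymph node vehicle, again without overlap between organs.

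Zbtb16 encodes PLZF, the transcription factor that directs NKT and other innate-like T cells. It was at 5.82 and 8.92 CPM in spleen Tcon after SAH and 8.98 CPM after vehicle, against 0.332 and 0.179 CPM in lymph node Tcon after SAH and 0.293 CPM after vehicle. These lymph node values stand for 7 to 14 reads, the fewest of the 10 genes, and Zbtb16 was not listed in Treg. Il18rap encodes the accessory chain of the interleukin-18 receptor, through which NK and type 1 cells make interferon gamma. In Tcon it was at 6.64 and 7.33 CPM in spleen SAH, 9.995 CPM in spleen vehicle, 0.996 and 0.664 CPM in lymph node SAH and 1.23 CPM in lymph node vehicle. In Treg it was at 10.03 and 7.54 CPM in spleen SAH, 8.51 CPM in spleen vehicle, 5.81 and 5.05 CPM in lymph node SAH and 4.01 CPM in lymph node vehicle. The spleen levels of the cell types overlapped for this gene, and those of lymph node did not.

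Serpina3g encodes an intracellular inhibitor of cysteine cathepsins, and Myo1f a class I myosin of leukocytes. Serpina3g was the most abundant of the group in Treg, at 88.1 and 75.2 CPM in spleen SAH, 80.0 CPM in spleen vehicle, 49.5 and 51.3 CPM in lymph node SAH and 39.0 CPM in lymph node vehicle. In Tcon it was at 10.2 and 13.3 CPM in spleen SAH, 12.7 CPM in spleen vehicle, 1.14 and 0.715 CPM in lymph node SAH and 0.907 CPM in lymph node vehicle. Its level is uncertain in that the Serpina3 cluster holds near-identical copies that counting could split. Myo1f in Treg was at 65.7 and 65.7 CPM in spleen SAH, 57.1 CPM in spleen vehicle, 28.2 and 30.2 CPM in lymph node SAH and 22.1 CPM in lymph node vehicle. In Tcon, Myo1f was at 19.1 and 18.3 CPM in spleen SAH, 22.0 CPM in spleen vehicle, 2.89 and 1.74 CPM in lymph node SAH and 2.21 CPM in lymph node vehicle. Both genes were higher in every Treg library than in any Tcon library.

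Without overlap between organs, 10 of 10 genes were higher in spleen in Tcon, as 10% of all Tcon genes were. In Treg 5 of 6 were higher in spleen and 1 was lower, as 16.8% and 15.1% of all Treg genes were. The choice of the genes fixed most of these counts. The ratio was present in both treatments. In Tcon it ranged over the 10 genes from 1.24 to 28.9 between the SAH libraries (median 13.4) and from 1.70 to 59.2 between the vehicle libraries (median 14.8). In Treg it ranged over the 6 genes from 0.561 to 2.95 between the SAH libraries (median 1.93) and from 0.527 to 3.25 between the vehicle libraries (median 2.34).

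**Figure D2:**
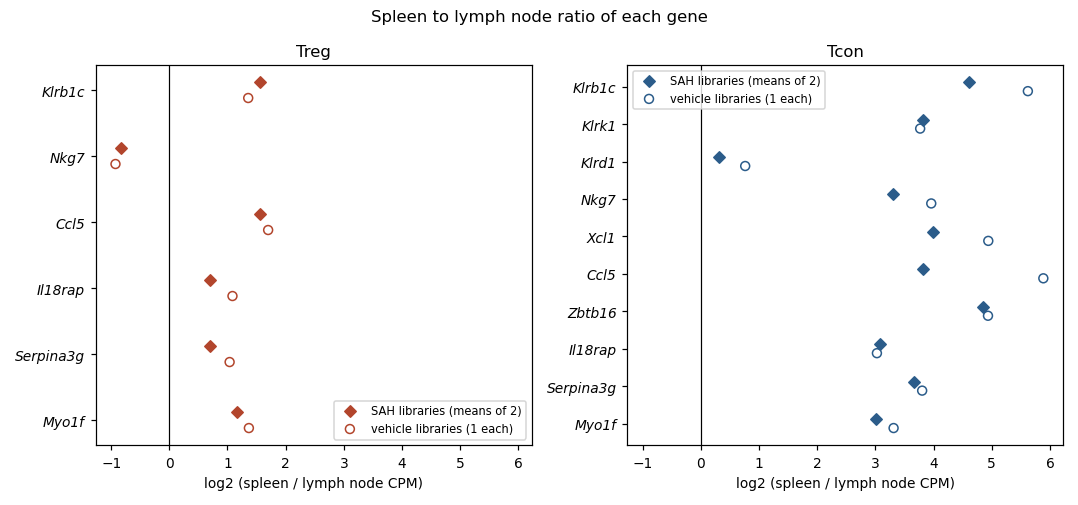
Log2 of the spleen over lymph node CPM for each listed gene in Treg (left) and Tcon (right); diamonds are the ratio of the means of 2 SAH libraries and open circles that of 1 vehicle library each. In Tcon, Klrd1 lies near 0 and the other 9 lie at or above a ratio of 8.08 in SAH libraries, while in Treg Nkg7 lies on the other side of 0.

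Per kilobase of annotated exon, the spleen Tcon mean was highest for Xcl1 at 25.3 CPM per kb, Ccl5 at 22.6 CPM per kb and Nkg7 at 19.1 CPM per kb, followed by Klrd1 at 12.2 CPM per kb. Serpina3g (5.74 CPM per kb), Klrb1c (5.40 CPM per kb) and Myo1f (3.99 CPM per kb) came next, and Zbtb16, Klrk1 and Il18rap were at 1.18 to 1.496 CPM per kb. In spleen Treg the order was led by Serpina3g at 38.5 CPM per kb, then Myo1f at 12.6 CPM per kb, Nkg7 at 12.1 CPM per kb and Ccl5 at 8.42 CPM per kb, with Il18rap and Klrb1c at 1.29 and 1.22 CPM per kb. On this per-length scale the chemokines led in Tcon and the protease inhibitor led in Treg. Across the separately scaled tables, the Treg level of Serpina3g was 6.72 times the Tcon level in spleen and 50.7 times in lymph node, and that of Klrb1c was 0.225 times in spleen and 2.60 times in lymph node. Klrb1c, Nkg7 and Ccl5 were thus higher in Treg than in Tcon in lymph node and lower in Treg than in Tcon in spleen, as untested levels.

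The regions before the start sites of Klrb1c and Klrk1 (the receptors with large ratios), Xcl1 (the most abundant chemokine per length) and Nkg7 (the gene that ran in opposite directions) are shown as examples of genes that were high together in spleen Tcon. The sequences are from RefSeq (GRCm38.p6), whose promoter table holds 7 of the 10 genes, and each gives the 250 bases before the start on the gene's own strand, 5′ to 3′. They lie at chr6:128788642-128788891 (minus strand) for Klrb1c, chr6:129623865-129624114 (minus strand) for Klrk1, chr7:43436888-43437137 (plus strand) for Nkg7 and chr1:164935523-164935772 (minus strand) for Xcl1. The gene models of the GENCODE annotation for mm10 start earlier for some genes: the Klrb1c window lies within its model (chromosome 6, 128778485 to 128789215), and the windows of Nkg7 and Xcl1 run into theirs (chromosome 7, 43437073 to 43438249, and chromosome 1, 164931644 to 164935527). Capitals mark 3 motifs searched on both strands: GGTGTGA (or TCACACC), a core bound by T-box factors such as T-bet and Eomes, TGTGGT (or ACCACA), the core of RUNX factors, and GGAAGT (or ACTTCC), a core of ETS factors.
Klrb1c: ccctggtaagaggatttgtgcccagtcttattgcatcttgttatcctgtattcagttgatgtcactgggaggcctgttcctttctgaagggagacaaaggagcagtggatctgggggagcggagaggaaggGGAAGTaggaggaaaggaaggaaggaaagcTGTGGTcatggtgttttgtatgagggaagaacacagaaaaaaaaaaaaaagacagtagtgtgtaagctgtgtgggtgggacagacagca
Klrk1: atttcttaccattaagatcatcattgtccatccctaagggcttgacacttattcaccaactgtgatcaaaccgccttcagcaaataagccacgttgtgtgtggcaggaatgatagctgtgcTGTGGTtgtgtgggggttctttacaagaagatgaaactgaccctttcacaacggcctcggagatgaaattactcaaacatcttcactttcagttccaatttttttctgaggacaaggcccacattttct
Nkg7: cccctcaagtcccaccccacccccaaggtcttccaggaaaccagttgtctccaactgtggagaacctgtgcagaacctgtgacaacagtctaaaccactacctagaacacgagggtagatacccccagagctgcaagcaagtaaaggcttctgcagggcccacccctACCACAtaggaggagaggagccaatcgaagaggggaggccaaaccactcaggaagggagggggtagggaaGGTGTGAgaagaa
Xcl1: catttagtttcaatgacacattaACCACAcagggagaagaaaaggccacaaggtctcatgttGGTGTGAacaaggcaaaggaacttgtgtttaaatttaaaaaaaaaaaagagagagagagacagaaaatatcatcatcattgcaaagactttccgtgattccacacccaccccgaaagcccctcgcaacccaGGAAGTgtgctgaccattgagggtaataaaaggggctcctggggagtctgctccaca

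The T-box letters were in 2 of the 7 promoters, those of Xcl1 and Nkg7, against 3.33% of 32851 mouse promoter windows of the same length. The RUNX letters were in 6 of 7, all but that of Il18rap, against 14.0% of all windows, and the ETS letters in 3 of 7 (Klrb1c, Xcl1 and Il18rap), against 19.7%. In Nkg7 the T-box letters begin 13 bases before the RefSeq start, inside the GENCODE gene model, and in Xcl1 188 bases before it. A match of letters is a description and not a binding site, and no binding was measured here.

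With SAH, none of the 10 genes passed the test in either cell type. SAH was compared with vehicle by limma on log2(CPM + 1), with organ as a term and p-values adjusted by Benjamini-Hochberg over every gene of the cell type, and a gene was called below an adjusted p of 0.05. Fold changes on this scale understate the change of genes near 1 CPM. In Treg, 0 of 6 were called and 3 had an unadjusted p below 0.05, beside 21 of 10405 genes called (0.202%) and 733 with an unadjusted p below 0.05. In Tcon, 0 of 10 were called and 4 had an unadjusted p below 0.05, beside 103 of 9886 genes called (1.04%) and 1391 with an unadjusted p below 0.05.

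In Treg, Myo1f had the smallest p, at a log2 difference of 0.29 (95% interval 0.15 to 0.43, adjusted p = 0.131), with both SAH libraries above the vehicle library in spleen and in lymph node. In the authors' deposited table the same contrast of Myo1f has a log2 fold change of 0.29 with a false discovery rate of 0.0399 and is called higher, so the call depends on the method. The limma call was made without spleen SAH library 06, at 0.30 (adjusted p = 0.0281). Serpina3g had a log2 difference of 0.19 (interval 0.02 to 0.36, adjusted p = 0.642), and Nkg7 of 0.22 (interval 0.04 to 0.41, adjusted p = 0.608). Without library 06, Serpina3g was called at 0.27 (adjusted p = 0.0312), and without lymph node vehicle library 01 it was at 0.02 (adjusted p = 0.999). The values were 0.19 for Il18rap, 0.03 for Klrb1c and -0.02 for Ccl5, each with an interval that holds 0, and Il18rap was at 0.03 without library 01. The median over the 6 genes was 0.19 (0.067 without library 01), against 0.00347 over all Treg genes. In lymph node 4 of the 6 had both SAH libraries above the vehicle library, as 36.8% of all Treg genes did, and in spleen 3 of the 6 did, as 30.4% of all genes did.

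In Tcon, 9 of the 10 genes had a negative log2 difference, with a median of -0.20 against -0.00275 over all Tcon genes, of which 51.1% were negative. Without spleen vehicle library 04, 4 of the 10 were negative (Klrk1, Klrd1, Zbtb16 and Il18rap) and the median was 0.00726, and without lymph node vehicle library 01, 10 of 10 were negative with a median of -0.44, so the sign count rests on the single vehicle libraries. Klrb1c was at -0.45 (95% interval -0.88 to -0.02, adjusted p = 0.334), Klrd1 at -0.39 (interval -0.64 to -0.14, adjusted p = 0.150), Il18rap at -0.38 (interval -0.65 to -0.10, adjusted p = 0.201) and Klrk1 at -0.36 (interval -0.65 to -0.08, adjusted p = 0.236). The other 6 were between -0.23 (Xcl1) and 0.29 (Ccl5) with intervals that hold 0. In the authors' deposited table Klrb1c is called lower in Tcon, with a log2 fold change of -0.73 and a false discovery rate of 0.0195, and the other 9 are not called. The limma value of Klrb1c was 0.01 without spleen vehicle library 04 and -0.91 without lymph node vehicle library 01, so it rests on library 04. Klrd1 was called at -0.47 without lymph node SAH library 02 (adjusted p = 0.0349), and it was at -0.18 without library 04 (adjusted p = 0.764).

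**Figure D3:**
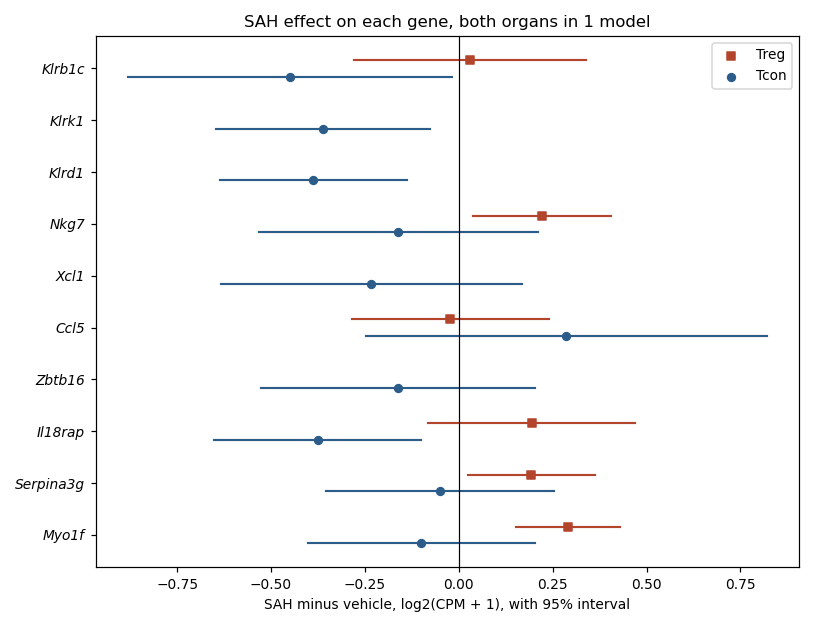
SAH minus vehicle for each gene on the log2(CPM + 1) scale with its 95% interval, from the model with both organs; squares are Treg and circles Tcon. The Tcon values lie left of 0 for 9 of 10 genes and the Treg values lie right of 0 for 5 of 6, and none passed an adjusted p of 0.05. Without spleen vehicle library 04, 4 of the 10 Tcon values were left of 0.

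Within spleen Tcon, both SAH libraries were below the vehicle library for 9 of the 10 genes, all but Serpina3g, as for 40% of all Tcon genes. The ratio of the SAH mean to the vehicle library ranged from 0.516 for Klrb1c to 0.930 for Serpina3g, with a median of 0.717. All of these ratios share the vehicle library 04, so the 9 genes are not 9 separate observations of SAH. The summed CPM of the 10 genes was 119.3 and 132.8 in spleen SAH and 171.8 in spleen vehicle, and it was 23.4 and 16.2 in lymph node SAH and 20.4 in lymph node vehicle. In lymph node Tcon 3 of the 10 had both SAH libraries below the vehicle library and 2 had both above, as 33.1% and 33.7% of all genes did. The summed B cell markers stood in the same order in spleen Tcon, with 21.4 and 25.0 CPM in SAH and 31.9 CPM in vehicle. Most of this sum was Cd74, at 15.2 and 19.6 CPM in SAH and 25.0 CPM in vehicle. Cd79a followed the order, and Cd22 did not, at 4.15 and 3.03 CPM in SAH and 3.90 CPM in vehicle. The summed NK-defining markers did not follow it, with 25.2 and 22.6 CPM in SAH and 22.9 CPM in vehicle. The summed myeloid markers stood in the opposite order, at 51.8 and 47.7 CPM in SAH and 44.9 CPM in vehicle. The part of these markers in the result was not tested.

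The SAH effect in spleen minus that in lymph node was negative for 10 of 10 genes in Tcon, as for 52.3% of all Tcon genes. The median was -0.33 against -0.0093 over all genes, and again no gene was called. All 10 values share the vehicle libraries 04 and 01, and without either there is no fit. They are thus not separate observations of SAH. Without lymph node SAH library 02 or without spleen SAH library 05, 8 of 10 were negative. With a pseudocount of 0.25, 10 of 10 were negative. On plain CPM, SAH was 0.697 times vehicle in spleen and 0.670 times in lymph node for Klrk1. For Il18rap it was 0.699 and 0.676 times. The negative sign for Klrk1 and Il18rap thus depends on the value added to low lymph node levels. On the log2(CPM + 1) scale the difference was -0.92 for Klrb1c (95% interval -1.52 to -0.31), -0.95 for Ccl5 (interval -1.81 to -0.08) and -0.72 for Xcl1 (interval -1.37 to -0.06), each with an adjusted p of 0.913. The test called 0 of 9886 genes in Tcon (0%) and gave 504 an unadjusted p below 0.05, the 3 named genes among them. The value for Ccl5 rests on both organs: SAH was 0.874 times vehicle in spleen and 3.68 times vehicle in lymph node, there on 92 and 30 reads after SAH against 15 after vehicle. Without lymph node SAH library 03, Ccl5 was called at -1.37 (adjusted p = 0.0374), and without lymph node SAH library 02 it was at -0.52 and not called. In Treg 0 of 6 were called, beside 1 of 10405 genes (0.00961%) and 251 with an unadjusted p below 0.05. Serpina3g, with the largest difference in Treg at -0.34 (interval -0.63 to -0.04, adjusted p = 0.9998), was called without spleen SAH library 05, at -0.45 (adjusted p = 0.0417).

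Set against each other in 1 model of 12 libraries, the SAH effect in Treg was above that in Tcon for 5 of the 6 genes listed in both. Among all genes, 48.5% had a negative difference. The median difference of the 6 was 0.39 (0.15 without spleen vehicle Tcon library 04) against 0.00397 over all genes. The difference was 0.57 for Il18rap (95% interval 0.17 to 0.97, adjusted p = 0.860), 0.48 for Klrb1c (interval -0.06 to 1.02), 0.39 for Myo1f (interval 0.05 to 0.73), 0.38 for Nkg7 (interval -0.05 to 0.82), 0.24 for Serpina3g and -0.31 for Ccl5. The model called 0 of 9784 genes (0%) and gave 453 an unadjusted p below 0.05, Il18rap and Myo1f among them. With the library number as a replicate block 76 genes were called and still none of the 6, with adjusted p from 0.140 for Il18rap to 0.648 for Ccl5.

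Beyond the 10 genes, other NK, cytotoxic and type 1 genes were counted from 3 lists drawn up from textbook roles with earlier results of these data known. Of 41 such genes listed in Tcon, 26 were higher in spleen, 1 was lower (Tox) and 14 did not pass, with a median of 0.46 on the log2(CPM + 1) scale against -0.00187 over all genes. Among all 9886 Tcon genes 3.28% were called higher and 1.46% lower in spleen. Of the 26, 3 (Klrc1, Plac8 and Zeb2) were below 1 CPM in every lymph node library and were thus listed only through spleen. Their difference was bound to be high, and 23 of the other 38 genes were higher. The listing also leaned on spleen for some of these 38, such as Ccr2, at 0.949, 1.10 and 0.533 CPM in lymph node Tcon libraries 02, 03 and 01. Of 43 listed in Treg, 20 were higher, 2 lower (Ctsw and Sh2d2a) and 21 did not pass, with a median of 0.23 against -0.00277, beside 8.71% and 6.01% of all Treg genes. Tyrobp and Zeb2 were listed only through spleen in Treg, and 18 of the other 41 genes were higher. Since the lists were drawn up with the data known, nothing particular to them is read from these counts. Without any single library the count of higher genes was 21 to 26 in Tcon and 16 to 23 in Treg. With SAH, 0 of 41 in Tcon and 0 of 43 in Treg were called, with medians of -0.11 and 0.04.

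Among the regulators and chemokine receptors of type 1 cells, 16 of 21 listed genes were higher and 1 lower in spleen Tcon, and 10 of 20 were higher in spleen Treg. Tbx21 itself was at 12.9 and 10.6 CPM in spleen Tcon after SAH and 14.9 CPM after vehicle, against 1.73 and 1.10 CPM in lymph node Tcon after SAH and 1.41 CPM after vehicle. It was 2.51 higher in spleen Tcon on the log2 scale (95% interval 2.22 to 2.81, adjusted p = 3.43e-06) and 0.75 higher in spleen Treg (interval 0.43 to 1.06, adjusted p = 0.00298). Cxcr6, a chemokine receptor of tissue-resident and NKT cells, was at 19.1, 23.9 and 38.4 CPM in the spleen Tcon libraries 05, 06 and 04 and at 2.89, 2.63 and 3.49 CPM in the lymph node Tcon libraries 02, 03 and 01. It rose in spleen Tcon by 2.76 (adjusted p = 1.64e-06), while Cxcr6 in Treg was at 3.44 ± 0.554 CPM in spleen and 3.65 ± 0.579 CPM in lymph node libraries (SD, n = 3 each). Ccr2 and Cxcr3 were higher in spleen Tcon by 2.57 and 2.17. Plac8, listed in Tcon only through spleen, was at 5.18, 5.62 and 12.8 CPM in the spleen Tcon libraries 05, 06 and 04 and at 0.569, 0.153 and 0.133 CPM in the lymph node Tcon libraries 02, 03 and 01.

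Among NK receptors and adaptors 5 of 8 listed genes were higher in spleen Tcon, and 5 of 10 were higher and 1 lower in spleen Treg. Slamf7 (2.03), Cd160 (1.59) and Il2rb (1.46) were higher in spleen Tcon, and the call of Klrc1 is that of a gene listed only through spleen. Slamf7 was below 1 CPM in lymph node Tcon library 03. It too needed its spleen level to be listed, which favoured a high difference. In Treg, Klrg1, an inhibitory receptor of terminal effector cells, was higher in spleen by 2.07. Tyrobp, an adaptor of NK and myeloid cells, was listed in Treg only through spleen, at 2.11 to 3.85 CPM in spleen and 0.0244 to 0.196 CPM in lymph node. Among cytotoxic genes 5 of 12 were higher in spleen Tcon, led by Ifng at 2.64, and 5 of 13 were higher and 1 lower in spleen Treg. Ctsw, a granule-associated cathepsin, was at 33.1, 41.2 and 34.3 CPM in the spleen Treg libraries 05, 06 and 04 and at 113.2, 122.8 and 104.8 CPM in the lymph node Treg libraries 02, 03 and 01, a log2 difference of -1.63 (95% interval -1.78 to -1.47, adjusted p = 2.98e-09). It ran in Treg in the direction of Nkg7. The perforin gene Prf1 was at 12.2 to 12.9 CPM in spleen Tcon and 11.0 to 11.6 CPM in lymph node Tcon and did not pass the test.

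**Figure D4:**
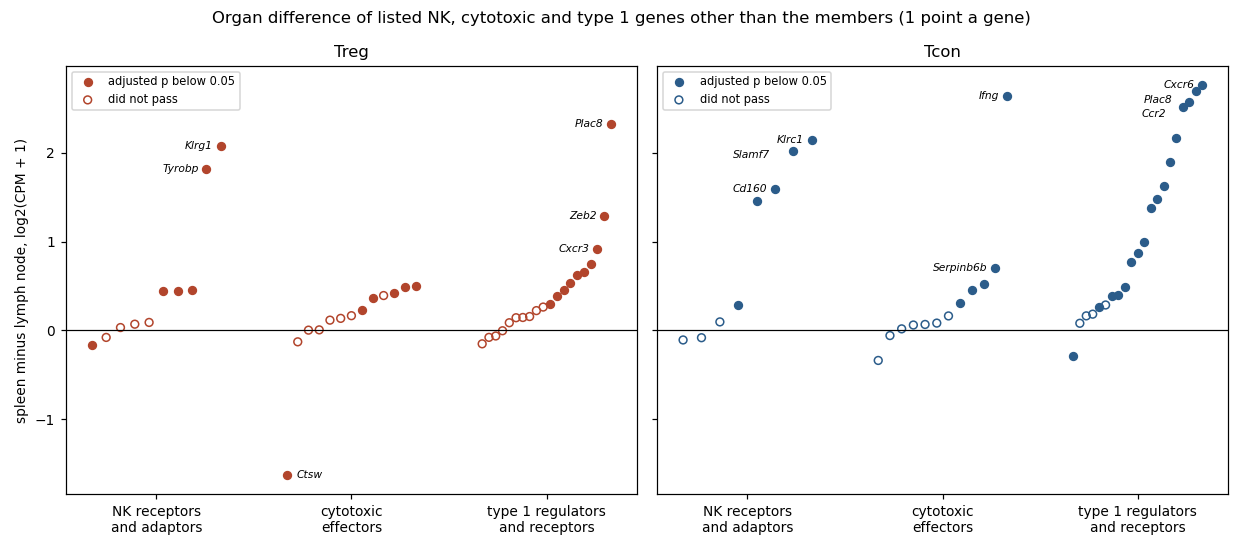
Spleen minus lymph node difference on the log2(CPM + 1) scale for genes of the NK receptor, cytotoxic and type 1 lists, without the 10 genes, in Treg (left) and Tcon (right); each point is 1 gene, and filled points passed an adjusted p of 0.05 in limma. In Tcon 26 of 41 genes are filled above 0 and 1 below, and in Treg 20 of 43 above and 2 below, Ctsw lowest.

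Ligands and partners of the 10 genes mostly did not pass between the organs. In Tcon 3 of 12 listed partners were higher in spleen, among them the cathepsin Ctsb (0.21) and Klrc1, and in Treg 3 of 13 were, namely the NKG2D ligand H60b (0.40), Ctsb (0.18) and Tyrobp. Without Klrc1 and Tyrobp, listed only through spleen, the counts were 2 of 11 in Tcon and 2 of 12 in Treg. The adaptor Hcst was at 52.7 ± 4.13 CPM in spleen Tcon and 49.2 ± 3.29 CPM in lymph node Tcon, and the Qa-1 gene H2-T23 at 543 ± 17.8 CPM in spleen Tcon and 505 ± 44.5 CPM in lymph node Tcon (SD, n = 3 each). Il18r1, the chain that Il18rap joins, was at 77.6 ± 7.83 CPM in spleen Tcon and 69.0 ± 2.89 CPM in lymph node Tcon (SD, n = 3 each). Clec2d, Clec2i, Ulbp1, Il18bp, Myd88 and Ctsl did not pass in either cell type. With SAH, Ctsl was the 1 partner of 12 called in Tcon, at 28.8 and 32.0 CPM in spleen SAH, 23.1 CPM in spleen vehicle, 31.5 and 29.8 CPM in lymph node SAH and 20.0 CPM in lymph node vehicle (log2 difference 0.48, adjusted p = 0.0193). In Treg 0 of 13 partners were called with SAH.

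Of the paralogs, Serpina3f, next of kin to Serpina3g, was at 3.72, 7.92 and 5.60 CPM in the spleen Tcon libraries 05, 06 and 04 and at 0.166, 0.128 and 0.133 CPM in the lymph node Tcon libraries 02, 03 and 01. It was listed in Tcon only through spleen, so its difference was bound to be high, and 0 of the other 4 listed paralogs (Il18r1, Myo1c, Myo1g and Zbtb7b) passed. In Treg 4 of 10 were higher in spleen: Serpina3f (0.94), Serpina3i (0.64), Il1rl1 (0.57) and Myo1e (0.20). Myo1c, Myo1d, Myo1g, Zbtb7b, Zbtb32 and Il18r1 did not pass in Treg. With SAH 0 of 5 paralogs in Tcon and 0 of 10 in Treg were called.

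By the root mean square difference of centred log2(CPM + 1) profiles over 6 libraries, the non-member genes most like the mean profile of the 10 in Tcon were Tbx21 (0.150), Ifng (0.170), Cxcr6 (0.190), H2-Eb1 (0.197), Ccr2 (0.206), Mpeg1 (0.219), H2-Aa (0.235) and Mmp9 (0.236), against a median of 1.34 over all genes. Of the 10 genes themselves Myo1f was nearest to the mean at 0.111 and Klrd1 farthest at 1.11. H2-Eb1 and H2-Aa encode MHC class II chains and Mpeg1 a macrophage perforin. Lymph node Tcon means were 0.860 CPM for Ccr2, 0.523 CPM for H2-Eb1, 0.576 CPM for Mpeg1, 0.918 CPM for H2-Aa and 0.119 CPM for Mmp9. With a lymph node mean below 1 CPM, these genes needed their spleen level to be listed. In Treg the nearest genes were Kif5c (0.0517), S100a11 (0.0644), Pou2af1 (0.0661), Ccrl2 (0.0663), Id2 (0.0771), 1700056E22Rik (0.0796), Pdzd2 (0.0812) and Fgr (0.0812), against a median of 0.374, with Nkg7 farthest of the 6 at 0.759. In both cell types the mean profile was high in spleen by the choice of the genes, so its nearest genes were bound to be high there. The lists for the cell types share no gene.

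Markers of other cells also differed between the organs, and their part in the levels above was not tested. Of 12 NK-defining markers 2 were listed in Tcon (Eomes and Prf1), with a summed 22.6 to 25.2 CPM in spleen and 15.5 to 17.4 CPM in lymph node, and 3 in Treg (with Itga2), with 11.8 to 12.1 CPM in spleen and 7.70 to 9.33 CPM in lymph node. The NK receptor gene Ncr1, the Ly49 genes of the list and Gzma were not listed in either table. Of the CD8 markers Cd8b1 was listed, at 13.5 to 14.3 CPM in spleen Tcon and 13.8 to 14.4 CPM in lymph node Tcon, and none of 6 gamma delta T cell markers was listed. The macrophage gene Lyz2 was at 18.1 to 22.7 CPM in spleen Tcon and 0.08 to 0.66 CPM in lymph node Tcon, and at 21.6 to 52.2 CPM in spleen Treg and 0.90 to 1.33 CPM in lymph node Treg. All 4 listed myeloid markers summed to 44.9 to 51.8 CPM in spleen Tcon and 23.6 to 25.4 CPM in lymph node Tcon. Of these 4, Lyz2 alone was called higher in spleen Tcon, and it was listed there only through spleen. Of the other 3 (Itgam, Cst3 and Cd68) 0 were called in Tcon, where most of the difference in the sum was Lyz2. In Treg 5 of 5 listed myeloid markers were called higher in spleen, beside 8.71% of all Treg genes. They summed to 68.0 to 104.9 CPM in spleen Treg and 29.8 to 32.4 CPM in lymph node Treg. Without Csf1r, listed there only through spleen, 4 of 4 were called higher. The 3 listed B cell markers summed to 21.4 to 31.9 CPM in spleen Tcon and 6.45 to 9.44 CPM in lymph node Tcon. Called higher in spleen were 2 of these 3 in Tcon and 3 of 4 B cell markers in Treg. Slc4a1, a red cell gene, stood at 50.0 CPM in spleen Tcon library 06, against 3.38 and 4.21 CPM in the other spleen Tcon libraries and 0 in lymph node. In spleen Treg, Slc4a1 stood at 109.7 CPM in library 06, against 8.41 and 12.1 CPM in libraries 05 and 04. Of the 10 genes in Tcon, only Serpina3g was higher in SAH library 06 than in vehicle library 04. Against the other spleen SAH library, 05, all but Klrd1, Ccl5 and Myo1f were higher in 06.

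Markers of naive and memory T cells were compared between the organs, which cannot show whether the cells labelled naive were naive. Of 12 naive T cell genes none differed between organs in Tcon by an adjusted p below 0.05, with Ccr7 at 637 to 765 CPM in spleen Tcon and 587 to 861 CPM in lymph node Tcon. Of 14 listed genes of memory or activated T cells 11 were higher in spleen Tcon, beside 3.28% of all Tcon genes. Among them were Cxcr3, S100a6 (1.55), Anxa2 (1.17) and Cd44 (0.35). In Treg 5 of 15 listed memory or activated genes were higher and 2 lower in spleen, beside 8.71% and 6.01% of all Treg genes. With SAH, 4 of these 15 were called higher in Treg, beside 21 of 10405 genes called (0.202%), and 0 of 14 were called in Tcon. These lists too were drawn up with earlier results of these data known, and Cxcr3 is also in the type 1 list. Cd4 was at 947 to 1010 CPM in spleen Tcon and 967 to 1018 CPM in lymph node Tcon. The innate-like list held 10 further listed genes in Tcon, of which 4 were higher in spleen (Tbx21, Il17rb, Maf and Slamf6) and none lower. In Treg 5 of 12 were higher and 1, Il17rb, was lower, beside 8.71% and 6.01% of all Treg genes. Il17rb thus had an opposite sign in the cell types, and that difference was not tested.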

How the data were processed

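The 10 genes and the gene lists were chosen with earlier results of these data known. The submitters' processing notes name TopHat, Bowtie, edgeR and the build mm10; no source used here gives versions, annotation or counting program. In 1 table per cell type the authors deposited a normalized signal per gene and library, headed CPM. Column totals of 971928 to 1021433 show a further scaling factor per library. The deposited log2 values, p-values, FDR and scores (a likelihood ratio and a call) are the authors' own contrast of SAH against vehicle, per the file headers, used only where named.

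Low values were whole multiples of 1 read, and 100% of values fell within 0.1 of a whole read, which gave the read numbers. Tests used limma 3.58.1 in R 4.3.3 on log2(CPM + 1) (two-sided, intensity trend, Benjamini-Hochberg over all genes), tested on simulated data. Organ and treatment were terms of a model for each cell type (3 residual degrees of freedom), the interaction had 2, and cell types were compared in 1 model of 12 libraries. No filter was added. Named besides the 10 genes were called list genes by smallest adjusted p, all listed partners and paralogs, and the 8 nearest profiles. Same-numbered Treg and Tcon libraries deviated together (correlation 0.438 in lymph node SAH and 0.556 in spleen SAH, over 9784 genes), which with 2 libraries per group gives 2 independent values. Coordinates are from GENCODE for mm10, in which 95.9% of Treg symbols matched. Some list genes are counted but not reported here by name.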

Additional observations from a re-analysis of the deposited data

Results flagged for a closer look

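Nkg7 differed between organs in opposite directions in the cell types. The spleen mean was 0.550 times the lymph node mean in Treg and 11.6 times in Tcon, and every library followed these directions. The difference was not tested, since the gene was chosen with its organ levels known. Il17rb, a receptor of interleukin-25, also ran in opposite directions, at 0.575 times in Treg and 2.22 times in Tcon, and so did the integrin gene Itgal, at 0.958 times in Treg and 1.11 times in Tcon, and neither difference was tested.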

How the results depend on the processing

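The planned edgeR and DESeq2 alternatives on the recovered reads were not run, and all tests are on the deposited scaled signal. Of 420 recomputed effects of the 10 genes, 415 stayed on the same side of the threshold and 399 kept their direction, and the 5 that passed are given above. The number of genes called with SAH was 21 in Treg (7 without the intensity trend, 7 to 95 without 1 library) and 103 in Tcon (11 without the trend, 11 to 226 without 1 library). The interaction of SAH and organ had 1 call in Treg (2 with a pseudocount of 0.25, with a mean of at least 5 CPM or with 1 symbol for each set of identical values, 0 without the trend, 0 to 94 without 1 library) and 0 in Tcon (0 to 15 without 1 library). Leaving out a vehicle library leaves no fit of that interaction. Treg minus Tcon had 0 calls (1 without the trend, 0 to 7 without 1 library), and 76 with the library number as a replicate block. The organ difference had 1531 calls in Treg (768 to 1830 without 1 library) and 468 in Tcon (215 to 628). With 1 vehicle library for each organ and cell type, the intervals given are wide, and a gene that was not called may still have an SAH effect.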
